A study of Mus musculus with 30 samples.

Results

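Normal development of mouse forelimb buds was followed over 6 h by comparing wild-type control libraries collected 24 h and 18 h after injection of solvent. Both groups were chosen by their labels, as the 6 control libraries of these times among the 30 libraries of the series, with 3 libraries per time. All embryos were wild-type Swiss Albino, and at embryonic day E10.5 the pregnant females had received dimethyl sulfoxide (DMSO), the solvent used for a WNT inhibitor in the same study. Each replicate came from 1 pair of forelimb buds, and RNA of the whole bud was sequenced, so all of its cell types were measured together. Fewer cells of a type and less RNA per cell therefore cannot be told apart in any value given here. The remaining libraries were DMSO controls at 1, 6 and 12 h and libraries at the same 5 times after Wnt-C59, which blocks the secretion of WNT ligands.

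At these stages the forelimb bud is a core of mesenchyme wrapped in ectoderm. Signals from the apical ectodermal ridge (FGFs) and from the posterior polarizing region (SHH) keep the mesenchyme growing and patterned, and both centres are lost as outgrowth ends. In the core, cells condense and become cartilage, tendon and connective tissue, while muscle precursors that migrated in from the somites begin to fuse and build contractile filaments.

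The 18 h libraries held 18331160, 38974885 and 19373520 counts and the 24 h libraries 19837881, 26261117 and 25835820. Genes were compared for 13563 autosomal protein-coding genes with enough counts, and levels are given as CPM, counts scaled to a common library size. The libraries carried the markers of a forelimb: *Tbx5*, the forelimb selector gene, lay at 294 ± 3.89 CPM (SD, n = 3) at 18 h and 292 ± 7.39 CPM at 24 h, and *Tbx4*, its hindlimb counterpart, at 14.7 ± 1.61 and 11.5 ± 1.05 CPM. Replicate 1 of 18 h stood apart from the other 5 libraries. Genes annotated as ribosomal RNA took 0.380% of its counts against 2.14 to 2.73% in the others, and its 10 most abundant genes took 3.86% of counts against 5.47 to 6.04%. Its part in the results was not tested, and a list's counts are given also without it where they moved by over 1.5 times. Y-linked genes marked 1 of 3 embryos at 18 h and 2 of 3 at 24 h as male.

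Of the gene lists examined, the sarcomere genes rose most, genes of cartilage, tendon and connective tissue rose by less, and the heterochronic regulators and replication genes were lower by smaller amounts. Between 18 and 24 h, 782 genes rose and 532 fell with edgeR's quasi-likelihood test at an adjusted p under 0.05, which is 5.77% and 3.92% of the genes tested (9.69% together). Changes beyond 1 on the log2 scale were almost all increases, with 154 genes higher and 21 lower (1.14% and 0.155% of genes). The split of the calls moved with the scaling, since upper-quartile factors gave 928 higher and 348 lower. Without replicate 1 of 18 h, 1216 genes were higher and 1256 lower, which is 8.81% and 9.1% of the 13801 genes then tested. These shares of all tested genes are the background for the list counts given below. For 2519 genes (18.6%) the 3 libraries of 24 h all lay above the 3 of 18 h, and for 1929 genes (14.2%) all lay below.

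Over the control time course the 6 h step was a large one. On the first principal component of the 15 DMSO libraries, which held 62.7% of the variance of 2000 variable genes, the mean position of the 1 h libraries was set to 0% and that of the 24 h libraries to 100%. The 18 h libraries then lay at 69.8, 72.3 and 67.1% and the 24 h libraries at 99.6, 97.9 and 103%. The groups did not overlap, and the means were 17.2 ± 0.926% at 6 h, 36.7 ± 9.56% at 12 h and 69.7 ± 2.60% at 18 h (SD, n = 3 each). This axis was built from the same libraries and is a description.

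**Figure D1:**
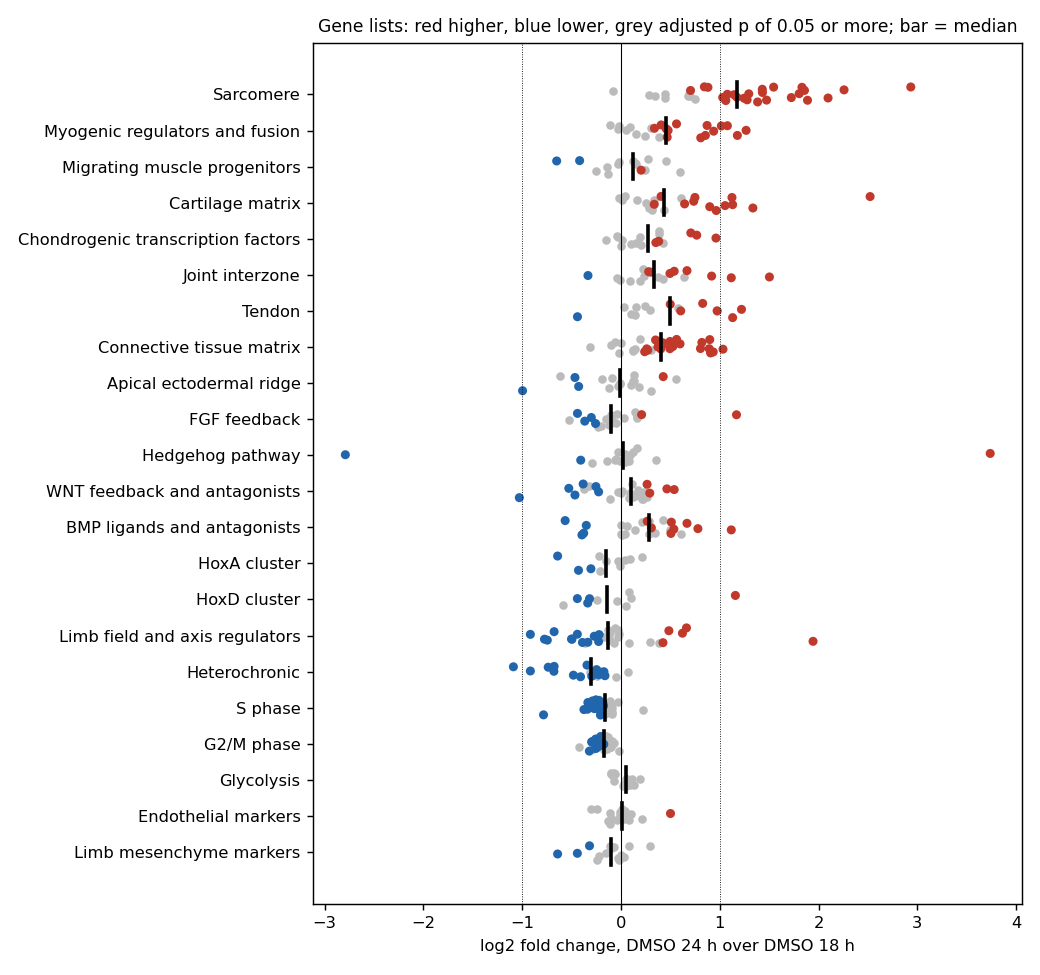
Log2 fold change from 18 to 24 h in DMSO libraries (x axis) for each tested gene of 22 lists (y axis), with red points for genes called higher, blue for genes called lower, grey for genes not called, and a bar at the median. The sarcomere median lay at 1.17, the heterochronic median at -0.305, and *Ihh* (3.74) and *Shh* (-2.79) stood at opposite ends of the hedgehog row.

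Contractile proteins of skeletal muscle assemble into sarcomeres once myoblasts stop dividing and fuse. Of the 33 sarcomere genes tested, 24 rose and 0 fell, and their median log2 fold change was 1.17 against -0.014 over all tested genes. Without replicate 1 of 18 h, 28 rose and 0 fell. Their summed level went from between 336 and 422 CPM at 18 h to between 682 and 847 CPM at 24 h.

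*Actc1* (ENSMUSG00000068614, mm10 chromosome 2, 114047282 to 114053548, minus strand), the actin of embryonic muscle, was at 91.1, 104 and 91.5 CPM at 18 h and at 198, 181 and 234 CPM at 24 h. All 24 h libraries lay above all 18 h libraries, and the log2 fold change was 1.08 ± 0.09 (SE, adjusted p = 0.000449). *Acta1*, the actin that replaces it in adult skeletal muscle, rose from 5.84, 6.26 and 5.94 CPM to 21.3, 15.7 and 28.6 CPM, by 1.83 ± 0.20 on the log2 scale. The spread of *Acta1* was wider at 24 h, where its lowest library still lay well above the highest of 18 h. Myosin heavy chains changed likewise. The embryonic chain *Myh3* was at 26.9, 42.6 and 30.6 CPM at 18 h and at 85.3, 68.5 and 78.9 CPM at 24 h (log2 fold change 1.17 ± 0.15). The slow chain *Myh7* was at 0.325, 0.803 and 0.432 CPM and then at 3.35, 2.66 and 2.42 CPM (2.26 ± 0.32). *Tnnc1*, the calcium-binding troponin of slow muscle, rose by 1.80 ± 0.16, and *Cav3*, the caveolin of muscle membranes, by 2.93 ± 0.47 from 0.0989 ± 0.0565 to 0.765 ± 0.13 CPM. The giant scaffold genes did not pass. *Ttn*, which encodes titin, was at 9.68, 31.4 and 17.8 CPM at 18 h and at 33.1, 22.2 and 23.9 CPM at 24 h, so the groups overlapped (0.34 ± 0.32, adjusted p = 0.53). *Neb*, which encodes nebulin, had a log2 difference of 0.75 ± 0.30 (adjusted p = 0.146). Both had their lowest value in replicate 1 of 18 h.

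**Figure D2:**
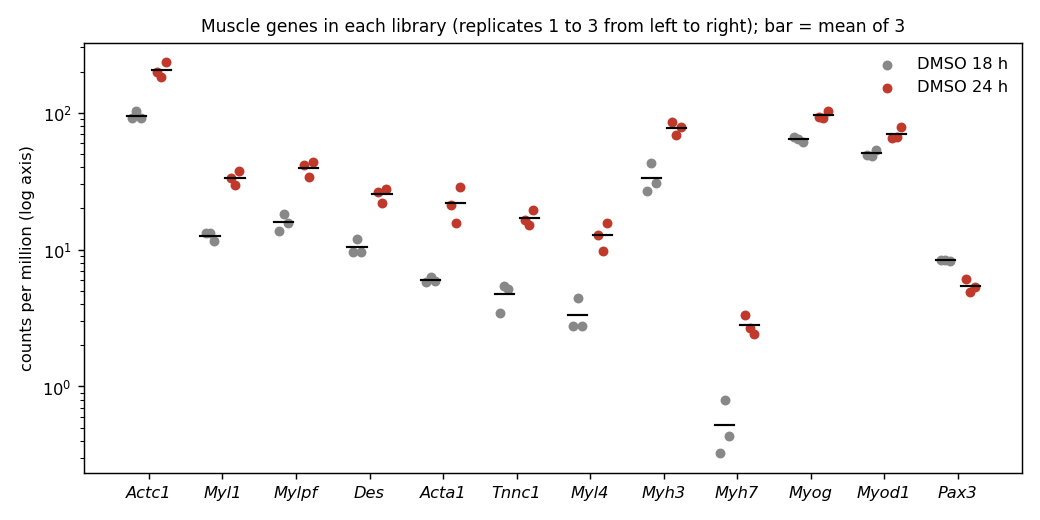
Level of 12 muscle genes (x axis) in each DMSO library (y axis, CPM on a log axis), with grey points for 18 h, red points for 24 h and a bar at the mean of 3. The 24 h libraries lay above the 18 h libraries for every gene drawn except *Pax3*, which fell from a mean of 8.4 to 5.45 CPM.

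Regulators of the muscle programme rose less than its products. Of the 23 myogenic regulators and fusion genes tested, 14 rose and 0 fell (median 0.458), with the same counts without replicate 1 of 18 h. *Myog*, which drives myoblast differentiation, was at 66.3, 64.5 and 61.5 CPM at 18 h and at 93.2, 92.1 and 103 CPM at 24 h, a rise of 0.56 ± 0.06 (adjusted p = 0.000767). *Myod1*, the determination factor, rose by 0.46 ± 0.08, *Mef2c*, its partner, by 0.81 ± 0.08, and *Mymk*, which makes myoblasts fuse, by 0.94 ± 0.14. *Smyd1*, a methyltransferase needed for sarcomere assembly, rose by 1.27 ± 0.14, and the acetylcholine receptor subunit *Chrna1* by 0.87 ± 0.10. Of 15 genes of migrating progenitors tested, 1 rose and 2 fell, and 2 rose and 4 fell without replicate 1 of 18 h. *Pax3*, the defining factor of these cells, was at 8.44, 8.46 and 8.32 CPM and then at 6.12, 4.88 and 5.35 CPM, a fall of 0.65 ± 0.12 on the log2 scale (adjusted p = 0.0115). *Lbx1*, needed for their migration, fell from 27 ± 2.77 to 20.4 ± 1.25 CPM. *Pax7* (0.46 ± 0.15, adjusted p = 0.0866) and *Myf5* (-0.02 ± 0.10, adjusted p = 0.906) did not pass.

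Because the sarcomere genes moved together, their RefSeq promoters (GRCm38.p6, 250 bases before the start site) were searched for CAGCTG, an E-box bound by myogenic factors that reads the same on both strands. It was present in 12 of the 26 sarcomere genes with a promoter entry (46.2%), against 14.8% of the 10656 tested genes with an entry. The CArG box, which binds serum response factor, was searched on both strands and was in 4 of the 26 (15.4%) against 1.36%. Of the 12 sarcomere genes with CAGCTG, 9 rose, a share close to that of the whole list (24 of 33). The promoters of the 4 with the smallest adjusted p are shown 5′ to 3′ on each gene's strand, with CAGCTG in capitals, so that its place in the window can be seen. It starts 224, 68, 51 and 36 bases before the start site in *Myl1*, *Tnni1*, *Mylpf* and *Des*. A match of letters is a description and not a binding site.
Myl1 promoter, chr1:66945057-66945306, minus strand: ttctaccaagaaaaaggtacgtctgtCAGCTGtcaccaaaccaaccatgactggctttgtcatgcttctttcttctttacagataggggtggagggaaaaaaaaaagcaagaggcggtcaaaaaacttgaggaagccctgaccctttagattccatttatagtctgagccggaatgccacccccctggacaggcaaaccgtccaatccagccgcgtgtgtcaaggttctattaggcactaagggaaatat
Tnni1 promoter, chr1:135799171-135799420, plus strand: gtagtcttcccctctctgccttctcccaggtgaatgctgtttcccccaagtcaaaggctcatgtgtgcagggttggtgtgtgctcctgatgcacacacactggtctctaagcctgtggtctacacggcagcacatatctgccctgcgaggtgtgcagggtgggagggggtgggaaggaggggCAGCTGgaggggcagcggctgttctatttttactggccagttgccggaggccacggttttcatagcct
Mylpf promoter, chr7:127211358-127211607, plus strand: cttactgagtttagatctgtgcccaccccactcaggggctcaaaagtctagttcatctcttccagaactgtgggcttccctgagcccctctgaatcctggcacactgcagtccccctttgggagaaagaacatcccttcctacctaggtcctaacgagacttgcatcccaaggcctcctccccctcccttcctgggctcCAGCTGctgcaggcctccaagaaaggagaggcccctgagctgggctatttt
Des promoter, chr1:75360042-75360291, plus strand: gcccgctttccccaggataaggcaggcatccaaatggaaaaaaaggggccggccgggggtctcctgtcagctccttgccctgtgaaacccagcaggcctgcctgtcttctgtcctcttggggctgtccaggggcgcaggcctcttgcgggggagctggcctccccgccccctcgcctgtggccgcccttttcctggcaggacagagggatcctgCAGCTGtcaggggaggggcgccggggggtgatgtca
*Myl1*, a myosin light chain of fast muscle, was at 13.1, 13.2 and 11.6 CPM at 18 h and at 33.3, 29.8 and 37.7 CPM at 24 h (1.38 ± 0.10). *Tnni1*, the troponin inhibitor of slow muscle, went from 6.38, 7.81 and 6.65 CPM to 18.8, 16.7 and 22.2 CPM (1.43 ± 0.13). *Mylpf* rose by 1.29 ± 0.12 and *Des*, which encodes the intermediate filament desmin, by 1.25 ± 0.12. For these 4 genes the 24 h libraries lay above all 18 h libraries.

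Cartilage forms when condensed mesenchyme secretes type II collagen and aggrecan. Of 23 cartilage matrix genes tested, 12 rose and 0 fell (median 0.436), and without replicate 1 of 18 h 17 rose. *Matn1* (ENSMUSG00000040533, mm10 chromosome 4, 130944385 to 130955475, plus strand), which encodes the cartilage protein matrilin-1, was at 1.84, 2.6 and 1.95 CPM at 18 h and at 13, 10.9 and 14.6 CPM at 24 h. The groups were far apart, with a log2 fold change of 2.52 ± 0.17 (adjusted p = 0.000252). *Acan*, which encodes aggrecan, was at 4.81, 7.06 and 5.83 CPM and then at 14.9, 12 and 13.2 CPM (1.12 ± 0.15), again without overlap. *Mia* rose by 1.34 ± 0.14, *Fmod*, a collagen-binding proteoglycan, by 1.13 ± 0.10, *Prelp* by 1.05 ± 0.15, and *Cnmd*, the vessel-repelling chondromodulin, by 0.75 ± 0.14. The abundant collagens had smaller fold changes. *Col9a1* rose from 218 ± 21.4 to 292 ± 10.7 CPM (0.41 ± 0.07). *Col2a1* was at 751, 690 and 627 CPM at 18 h and at 891, 767 and 833 CPM at 24 h. The groups did not overlap, but the change of 0.25 ± 0.07 had an adjusted p of 0.06, which was 0.000751 without replicate 1 of 18 h.

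*Sox9*, the master regulator of chondrogenesis, was at 254, 237 and 232 CPM and then at 275, 262 and 275 CPM, a difference of 0.15 ± 0.05 (adjusted p = 0.0861, and 0.00212 without replicate 1 of 18 h). Its partners *Sox5* (0.01 ± 0.08) and *Sox6* (0.20 ± 0.08) did not pass. Of the 18 chondrogenic transcription factors 5 rose and 0 fell: *Runx3* (0.96 ± 0.21), *Nkx3-2*, which holds back hypertrophy (0.77 ± 0.18), *Arid5a*, a cofactor of SOX9 (0.71 ± 0.14), *Runx2* (0.38 ± 0.09) and *Nfib*. Without replicate 1 of 18 h 9 of the 18 rose and 1 fell. The call of *Runx2* was lost in 6 of 17 other settings. *Sp7*, the osteoblast factor that acts after *Runx2*, rose from 3.46, 4.25 and 5.46 CPM to 6.23, 8.63 and 8.52 CPM (0.82 ± 0.19), as 1 of 3 osteoblast genes higher of 8 tested.

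Joints are laid down as stripes of interzone cells across the cartilage rods. Of 18 joint genes tested 8 rose and 1 fell (10 and 2 without replicate 1 of 18 h). *Nog*, the BMP antagonist of condensations and joints, was at 9.41, 8.03 and 6.92 CPM at 18 h and at 17.8, 15.7 and 20 CPM at 24 h (1.12 ± 0.13, adjusted p = 0.00132). *Gdf6* rose by 0.67 ± 0.13 and *Barx1* by 0.92 ± 0.21. *Gdf5*, the defining interzone ligand, was at 14, 13.8 and 9.83 CPM and then at 16.3, 17.1 and 18.3 CPM, without overlap but with an adjusted p of 0.064 (0.0109 without replicate 1 of 18 h). *Osr1* rose by 0.30 ± 0.05 and *Osr2* fell by 0.33 ± 0.08 on the log2 scale, and the call of *Osr2* was lost in 8 of 17 other settings.

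Of the 15 tendon genes tested 6 rose and 1 fell. *Scx*, the tendon progenitor factor, was at 73.9, 67.6 and 64.3 CPM and at 74.3, 69.8 and 79 CPM, so its groups overlapped (0.10 ± 0.07, adjusted p = 0.385). The tendon collagen *Col14a1* rose from 9.3 ± 2.25 to 22.5 ± 4.01 CPM (1.22 ± 0.18), and *Egr1* by 0.83 ± 0.13. Of the matrix genes of loose connective tissue, 21 of 31 rose and 0 fell (median 0.403), and 23 higher and 2 lower without replicate 1 of 18 h. *Col1a1*, which encodes the main collagen of bone and skin, was at 295, 369 and 343 CPM at 18 h and at 639, 579 and 586 CPM at 24 h (0.82 ± 0.08, adjusted p = 0.000487). *Col6a1* rose by 0.90 ± 0.07, the tenascin *Tnc* by 0.89 ± 0.11, the proteoglycans *Dcn* and *Ogn* by 0.91 ± 0.13 and 0.93 ± 0.08, and the crosslinking enzyme *Lox* by 1.03 ± 0.14. *Fn1* (-0.10 ± 0.14) and *Vcan* (-0.32 ± 0.14), matrix genes of the early mesenchyme, did not pass. Without replicate 1 of 18 h both were lower, by -0.25 and -0.47 on the log2 scale (adjusted p = 0.0168 and 0.000353).

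**Figure D3:**
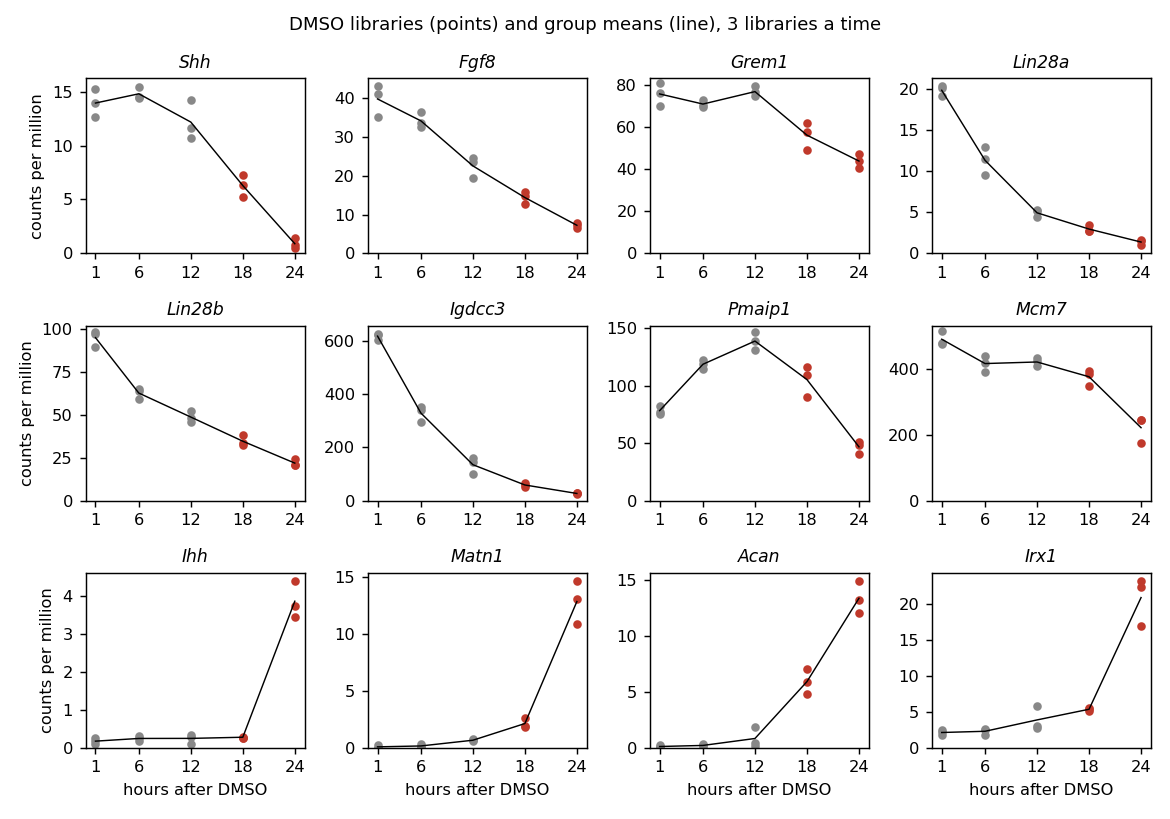
Level of 12 genes (y axes, CPM) in the 15 DMSO libraries against hours after injection (x axes), with red points for 18 and 24 h, grey points for earlier times and a line through the means. *Shh* ended at a mean of 0.898 CPM and *Ihh* at 3.87 CPM, while *Lin28b* and *Igdcc3* were lower at each later time.

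The 2 hedgehog ligands measured changed in opposite directions. SHH is made by the polarizing region at the posterior margin and IHH by chondrocytes that begin to mature. *Shh* (ENSMUSG00000002633, mm10 chromosome 5, 28456815 to 28467256, minus strand) was at 7.3, 5.24 and 6.32 CPM at 18 h and at 0.772, 1.41 and 0.515 CPM at 24 h. Every 24 h library lay far below every 18 h library, with a fall of 2.79 ± 0.29 on the log2 scale (adjusted p = 0.000829). *Ihh* (ENSMUSG00000006538, mm10 chromosome 1, 74945315 to 74951672, minus strand) was at 0.27, 0.294 and 0.27 CPM and then at 3.45, 3.75 and 4.4 CPM. The replicates of each time were closely spaced, and the rise was 3.74 ± 0.25 (adjusted p = 0.000252). In the DMSO time course *Ihh* had stayed between 0.175 and 0.278 CPM on average from 1 to 18 h, and *Shh* had averaged 13.9, 14.8 and 12.2 CPM at 1, 6 and 12 h. Most of the response genes did not pass. *Gli1*, a direct target, was at 48.2 ± 8.29 and 47.4 ± 1.52 CPM (-0.03 ± 0.11), *Ptch1*, the receptor and target, at 133 ± 19.4 and 110 ± 2.02 CPM (-0.29 ± 0.09, adjusted p = 0.0687), and *Hand2*, the posterior factor upstream of *Shh*, at 125 ± 5.19 and 122 ± 3.67 CPM. Of the 17 hedgehog pathway genes tested, 1 rose and 2 fell, against 5.77% and 3.92% of all genes.

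*Fgf8*, the ligand made along the whole apical ectodermal ridge, was at 14.7, 12.8 and 15.7 CPM at 18 h and at 6.64, 7.85 and 7.21 CPM at 24 h. The groups did not overlap and the fall was 1.00 ± 0.11 on the log2 scale (adjusted p = 0.00121). *Fgf4*, made in the posterior ridge, was too low to test, at 0.433, 0.401 and 0.81 CPM and then at 0.0515, 0.039 and 0.159 CPM. *Sp8*, a ridge transcription factor, fell by 0.43 ± 0.10, the WNT agonist *Rspo2* by 0.47 ± 0.10 and its relative *Rspo4* by 1.03 ± 0.13. *Fgf9*, a further ridge ligand, did not pass (-0.01 ± 0.11). Of 18 ridge genes tested 1 rose and 3 fell, against 5.77% and 3.92% of all genes (median -0.008, and 3 and 3 without replicate 1 of 18 h). Among genes that respond to FGF, *Etv4* was at 73.5, 66.8 and 71.6 CPM and then at 54.5, 54.6 and 49 CPM, a fall of 0.44 ± 0.06, *Dusp6*, the feedback phosphatase, fell by 0.37 ± 0.06 and *Spry4* by 0.26 ± 0.06. The calls of *Sp8* and *Spry4* were lost in 7 and 8 of 17 other settings. Of 20 FGF feedback genes 4 fell, 2 rose and 14 did not pass, against 3.92% lower and 5.77% higher of all genes. In this list 1 rise and no fall was beyond 1 on the log2 scale.

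*Grem1*, the BMP antagonist that links the SHH and FGF centres, was at 49, 57.7 and 61.8 CPM at 18 h and at 43.8, 47.1 and 40.6 CPM at 24 h, a fall of 0.38 ± 0.09 (adjusted p = 0.0288). *Bmp4* fell by 0.40 ± 0.08 and *Smoc1*, an extracellular BMP modulator, by 0.35 ± 0.07, while *Bmp2* rose by 0.27 ± 0.06, *Bmp5* by 0.51 ± 0.11 and *Bmper* by 0.78 ± 0.09. The calls of *Grem1* and *Bmp2* were lost in 6 and 8 of 17 other settings. Of 25 BMP ligands and antagonists, 8 rose and 4 fell (median 0.283). Of 15 BMP response genes, *Id4* (0.62 ± 0.12) and *Smad9* (0.73 ± 0.14) rose and *Id2* fell by 0.26 ± 0.07, a call lost in 14 of 17 other settings. *Axin2*, the direct target that reports canonical WNT activity, was at 111, 109 and 110 CPM and at 118, 111 and 107 CPM, which overlap (0.01 ± 0.05, adjusted p = 0.944). Of 30 WNT feedback and antagonist genes 4 rose and 6 fell (8 and 6 without replicate 1 of 18 h), among them the effector *Tcf7*, which fell by 0.38 ± 0.06, and the secreted antagonist *Frzb*, which fell by 0.53 ± 0.06. Of 16 WNT ligands 3 rose and 0 fell (5 and 0 without that library), led by *Wnt11* at 0.51 ± 0.07. Over all tested genes 5.77% rose and 3.92% fell.

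Regional identity genes changed in part. *Hoxa13* and *Hoxd13*, which specify the hand plate, did not pass: *Hoxa13* was at 74.9 ± 0.894 and 75.3 ± 3.64 CPM and *Hoxd13* at 306 ± 6.74 and 332 ± 8.03 CPM. Genes of more proximal identity within the clusters fell, with *Hoxa9* at 118, 81.4 and 87.5 CPM and then at 65.2, 58.6 and 62.4 CPM (-0.64 ± 0.12) and *Hoxd10* lower by 0.44 ± 0.06. The high 18 h value of *Hoxa9* was that of replicate 1, and without it the change was -0.45 (adjusted p = 7.66e-05). Of 11 HoxA genes 0 rose and 3 fell, and of 10 genes of the HoxD list 1 rose and 3 fell, against 5.77% and 3.92% of all genes. *Hoxd1* was the one that rose, from 0.44 ± 0.0432 to 0.993 ± 0.131 CPM. Of 16 proximal regulators 0 rose and 2 fell (1 and 4 without replicate 1 of 18 h), one of them *Zbtb16*, a chondrocyte and proximal limb factor (-0.60 ± 0.11), while *Meis1* (0.00 ± 0.06) and *Meis2* (-0.19 ± 0.05, adjusted p = 0.0554) did not pass.

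Limb field and axis regulators fell more often than they rose, with 12 of 31 lower and 5 higher (median -0.128). *Pax1*, an anterior mesenchyme factor, was at 72.5, 73.9 and 75.6 CPM at 18 h and at 41.4, 47.1 and 45.5 CPM at 24 h, a fall of 0.75 ± 0.06 (adjusted p = 0.0004). *Sall4*, an early progenitor factor, fell by 0.92 ± 0.14 and *Sall3* by 0.77 ± 0.11. *Alx4* fell by 0.39, whereas *Alx1* rose by 0.62 ± 0.13. *Irx1*, expressed in digit condensations, was at 5.35, 5.19 and 5.56 CPM and then at 23.3, 17 and 22.5 CPM (1.94 ± 0.14, adjusted p = 0.000252), and its neighbour *Irx2* rose by 0.66 ± 0.13. Enzymes of retinoic acid also moved. The synthetic enzyme *Aldh1a3* rose from 1.19, 1.39 and 1.24 CPM to 3.09, 4.14 and 4.52 CPM (1.59 ± 0.21), and *Cyp26b1*, which degrades retinoic acid in the distal mesenchyme, fell from 298 ± 13.2 to 238 ± 15.7 CPM (-0.34 ± 0.06). Of 18 retinoic acid genes 5 rose and 1 fell, against 5.77% and 3.92% of all genes.

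Heterochronic genes set the timing of development. LIN28 proteins block maturation of let-7, a family of microRNAs that in turn recognises the messengers of *Lin28a*, *Lin28b*, *Trim71* and *Hmga2*. Of 18 heterochronic genes tested 13 fell and 0 rose (median -0.305), and without replicate 1 of 18 h 14 fell. *Lin28b* (ENSMUSG00000063804, mm10 chromosome 10, 45376620 to 45486395, minus strand) was at 33.5, 32.2 and 38.2 CPM at 18 h and at 20.6, 24.3 and 20.7 CPM at 24 h (-0.68 ± 0.09, adjusted p = 0.00238). Over the control time course its mean went from 95.03 CPM at 1 h to 62.7, 48.7, 34.6 and 21.9 CPM. *Lin28a* was lower in level and fell by 1.09 ± 0.23, from 3.52, 2.68 and 2.7 CPM to 1.08, 1.6 and 1.47 CPM. *Trim71*, a let-7 target that keeps cells proliferating, was at 29, 33.2 and 40.6 CPM and then at 22, 21 and 22 CPM (-0.68 ± 0.11). *Hmga2*, a chromatin protein of growing tissue, fell by 0.25 ± 0.04, from 1096 ± 35.5 to 936 ± 32.2 CPM. *Igf2bp1* did not pass (-0.24 ± 0.12, adjusted p = 0.212, and 0.000767 without replicate 1 of 18 h).

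The let-7 sites in 3 of these messengers are shown because their genes fell and each 3′ UTR holds 4 of them. The mature sequence of let-7a (RefSeq, GRCm38.p6) has its seed, bases 2 to 8, in capitals, and 11 mature miRNAs of the table share that seed. For each gene the protein-coding GENCODE transcript with the longest 3′ UTR on mm10 was used. The sites are all on the minus strand and written 5′ to 3′, with CTACCTC, the match to the seed, in capitals. All 4 sites are given for *Lin28b* and the 2 nearest the stop codon for *Trim71* and *Hmga2*.
mmu-let-7a-5p: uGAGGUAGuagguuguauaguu
Lin28b 3′ UTR, chr10:45381016-45381037: cgggaagtCTACCTCatgcaag
Lin28b 3′ UTR, chr10:45378642-45378663: gttagtaaCTACCTCtgagttt
Lin28b 3′ UTR, chr10:45378470-45378491: gcacatggCTACCTCccagcta
Lin28b 3′ UTR, chr10:45377054-45377075: ggcaccgaCTACCTCttcaatc
Trim71 3′ UTR, chr9:114512466-114512487: cctaagtcCTACCTCagcttaa
Trim71 3′ UTR, chr9:114512370-114512391: atttctatCTACCTCaactctt
Hmga2 3′ UTR, chr10:120364218-120364239: ttcaatttCTACCTCagcatca
Hmga2 3′ UTR, chr10:120362981-120363002: cctcaataCTACCTCtgaatgc
let-7 itself was not measured. Of the 13563 tested genes 12 had 4 or more such matches. Among them 3 fell (*Trim71*, *Lin28b* and *Hmga2*), 0 rose, and the median log2 fold change was -0.221. The 12075 genes without a match had a median of -0.014, and 3.83% of them fell. With 1, 2 and 3 matches the medians were -0.01, -0.028 and -0.072 and the shares that fell were 4.18, 7.24 and 14.3%. The groups with more matches also had longer 3′ UTRs, with medians of 1098 bases without a match and 4353.5 bases with 4 or more, and the groups with 3 and with 4 or more matches held 14 and 12 genes, so these values are a description.

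**Figure D4:**
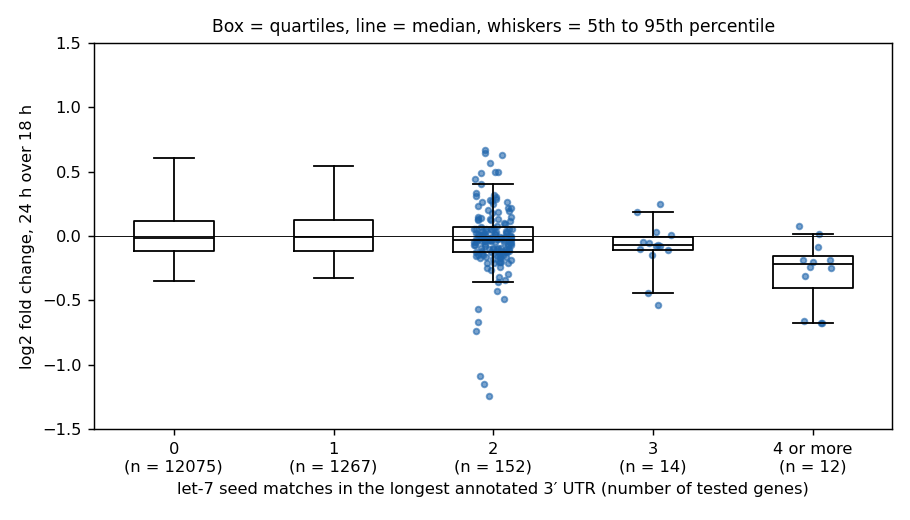
Log2 fold change from 18 to 24 h in DMSO libraries (y axis) for tested genes grouped by the number of let-7 seed matches in the annotated 3′ UTR (x axis), with boxes at the quartiles, whiskers at the 5th and 95th percentiles and single genes drawn from 2 matches upwards. The median lay at -0.014 without a match and at -0.221 with 4 or more.

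Replication and mitosis genes were lower by small amounts. Of 39 S phase genes 16 fell and 0 rose (median -0.162), and of 40 G2/M genes 15 fell and 0 rose (median -0.176). Without replicate 1 of 18 h the counts were 18 and 24 lower, with 0 higher. The S phase list summed to between 5347 and 5592 CPM at 18 h and to between 4778 and 4841 CPM at 24 h, and the G2/M list to between 6267 and 6825 and then between 5778 and 5855 CPM. *Mcm7*, a subunit of the replicative helicase, fell most, from 397, 351 and 385 CPM to 245, 176 and 246 CPM (-0.78 ± 0.11, adjusted p = 0.00367). *Pcna*, the polymerase clamp, fell by 0.18 ± 0.05, a call lost in 13 of 17 other settings, and *Ccnb1*, the mitotic cyclin, by 0.24 ± 0.04. *Mki67* was at 373, 569 and 515 CPM and at 389, 337 and 375 CPM, with an overlap through replicate 1 of 18 h (-0.43 ± 0.13, adjusted p = 0.0662, and 6.6e-06 without that library). The cell cycle inhibitor genes *Cdkn1c* (0.23 ± 0.05) and *Cdkn1a* (0.28 ± 0.06) rose, as did *Ccng1*, making 3 higher and 0 lower of 19 tested (8 and 1 without replicate 1 of 18 h). The call of *Cdkn1a* was lost in 7 of 17 other settings. *Pmaip1*, a cell death gene activated by p53, was at 109, 90.2 and 117 CPM and then at 48.5, 50.9 and 40.9 CPM. Its fall was 1.19 ± 0.10 on the log2 scale (adjusted p = 0.000449). *Pmaip1* and *Perp* (0.33 ± 0.07) were the 2 genes called of 22 cell death genes, a share near the 9.69% of all genes. Without replicate 1 of 18 h 1 of the 22 rose and 2 fell.

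Of 18 glycolysis genes and 18 cholesterol synthesis genes 0 passed the test, against 9.69% of all genes. Without replicate 1 of 18 h 1 cholesterol synthesis gene rose and 0 fell. Of 27 ribosome biogenesis genes 3 fell, led by *Noc2l* (-0.47 ± 0.05), and 10 fell and 1 rose without replicate 1 of 18 h. Of 15 hypoxia genes 3 rose and of 17 immediate early genes 3 rose. Of 13 heat shock genes 4 rose and 1 fell (5 and 2 without that library). Of 17 imprinted growth genes 2 rose and 1 fell (4 and 4 without that library). Over all tested genes 5.77% rose and 3.92% fell. *Dlk1*, a paternally expressed growth regulator, rose by 0.38 ± 0.04 and *Peg10* fell by 0.48 ± 0.09.

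The cell types that share the bud changed to different degrees, and their part in the values above was not tested. The endothelial markers summed to between 663 and 708 CPM at 18 h and to between 684 and 721 CPM at 24 h, and 1 of 20 was called, *Erg*, which cartilage also expresses (0.50 ± 0.06), against 3 of 20 without replicate 1 of 18 h. The 15 limb mesenchyme markers summed to between 2998 and 3117 CPM and then to between 2964 and 2977 CPM, with 3 lower and 0 higher (5 and 0 without replicate 1 of 18 h). Ectoderm markers summed to between 581 and 632 CPM and then to between 667 and 693 CPM, with 6 higher and 2 lower of 27. The basal keratin *Krt15* rose from 17.3, 21.3 and 19.5 CPM to 33.8, 31.2 and 38.2 CPM (0.80 ± 0.10), and the simple keratin *Krt8* fell by 0.64 ± 0.13. Some nerve-associated markers rose. Markers of Schwann cell precursors and crest cells summed to between 270 and 293 CPM and then to between 342 and 353 CPM. Of these 16 markers 4 rose and 0 fell (4 and 1 without replicate 1 of 18 h). Of 6 neuron markers 2 rose and 0 fell (3 and 0 without that library), and *Nefl*, a neurofilament subunit, rose by 1.04 ± 0.26.

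An embryonic and an adult globin gene changed in opposite directions. Red cells of the first wave carry embryonic globins and are gradually replaced by cells with adult globins. *Hbb-bh1*, an embryonic beta-like globin, was at 583, 542 and 622 CPM at 18 h and at 330, 430 and 443 CPM at 24 h (-0.56 ± 0.10, adjusted p = 0.00896). *Hbb-bs*, an adult beta globin, was at 32.2, 51 and 67.5 CPM and then at 92.4, 120 and 115 CPM (1.10 ± 0.21, adjusted p = 0.0112). Of 3 adult-type globins tested 1 rose and 0 fell (2 and 0 without replicate 1 of 18 h). Adult globin genes are near-identical copies of each other, so their reads may be split between copies. The 12 primitive erythroid markers summed to between 3764 and 4454 CPM and to between 3602 and 4433 CPM, which overlap, with 3 lower. Of 19 macrophage markers 3 rose and 0 fell, and the list went from between 84.9 and 92.5 CPM to between 99.6 and 110 CPM. *Lyve1*, found on macrophages and on lymphatic endothelium, rose from 0.757, 0.99 and 1.03 CPM to 1.96, 4.1 and 3.57 CPM (1.77 ± 0.30).

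Beyond the lists, the genes with the largest fold changes and the smallest adjusted p were named by a rule. *Tgfbi*, a secreted protein induced by TGF-beta, rose from 86.1, 84.7 and 77.6 CPM to 140, 143 and 143 CPM (0.76 ± 0.05), and *Pgm5*, an adhesion protein of muscle, from 29.5, 33 and 29 CPM to 58.1, 59.4 and 56.7 CPM (0.90 ± 0.06). Both had an adjusted p of 0.000252 and groups that were far apart. *Igdcc3*, a surface protein of the immunoglobulin family, fell from 64.3, 52.3 and 59.4 CPM to 27.1, 29.9 and 23.3 CPM (-1.15 ± 0.10), after group means of 618, 329 and 135 CPM at 1, 6 and 12 h. *Cttnbp2* fell by 0.83 ± 0.07, *Krt9* by 1.61 ± 0.18, *Mnx1* by 1.36 ± 0.26 and *Akr1e1* by 1.21 ± 0.16. *Gpat2* fell from 3.41 ± 1.26 to 1.59 ± 0.0416 CPM, *Clcn1* from 2.29 ± 0.457 to 1.02 ± 0.302 CPM and *Crhr1* by 1.34 ± 0.33. The adjusted p of *Crhr1* was 0.0368, and 0.0578 without replicate 1 of 18 h. The calls of *Gpat2*, *Clcn1* and *Crhr1* were lost in 7, 8 and 7 of 17 other settings. Among low genes, *Gng4* rose by 3.02 ± 0.42, *Kcnip1* by 2.35 ± 0.31, *Hmx1* by 2.42 ± 0.47 and *Myom2*, a sarcomere gene, by 2.10 ± 0.27.

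A few of the largest changes rested on uneven libraries. *Gm4737* was at 0.433, 0.455 and 0.864 CPM at 18 h and at 0.926, 48.4 and 24.4 CPM at 24 h, and *Padi4* at 0.162, 0.0535 and 0.162 CPM and then at 1.08, 4.49 and 0.911 CPM. *Tpm3-rs7* was at 182, 170 and 181 CPM and then at 3.14, 2.93 and 57.5 CPM, and *Gm10320* at 0.216, 0.214 and 0.432 CPM and then at 2.26, 5.62 and 3.09 CPM. The 24 h replicates of each were widely spread, and for *Gm4737* replicate 1 lay near the 18 h libraries. *Gm4737*, *Tpm3-rs7* and *Gm10320* have near-identical copies elsewhere in the genome, so their counts are uncertain, and the cause of the spread was not tested.

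The same 6 h was compared in embryos whose mothers had received Wnt-C59, to ask where normal progress differed from progress after WNT inhibition. No library is shared between these comparisons. The difference of the steps passed the test for 960 of 13794 genes (6.96%), with a higher step in DMSO for 473 (3.43%) and a lower one for 487 (3.53%). The differentiation lists varied in this. The steps differed for 1 of 33 sarcomere genes, 2 of 23 cartilage matrix genes and 0 of 18 heterochronic genes. They also differed for 4 of 15 tendon genes, 4 of 18 chondrogenic factors, 3 of 18 joint genes and 6 of 31 connective tissue genes. Most of these counts were smaller without the 2 libraries low in ribosomal RNA counts that are named below. They were then 2 tendon, 1 chondrogenic, 3 joint and 2 connective tissue genes, against 281 of 13897 genes. For the sarcomere, cartilage matrix and heterochronic lists they were 0. In C59 itself 740 of 13550 genes rose (5.46%) and 851 fell (6.28%), among them 26 of 33 and 0 of 33 sarcomere genes. The sarcomere median was 1.17 in DMSO and 1.37 in C59, and the heterochronic median -0.305 and -0.261. *Ihh* rose in both, by 3.74 ± 0.25 and by 3.56 in C59, with a difference of 0.17 (adjusted p = 0.863).

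The cell cycle steps had opposite directions. For 35 of 40 G2/M genes and 16 of 39 S phase genes the steps differed, always lower in DMSO. The G2/M list summed to between 3003 and 4092 CPM in C59 at 18 h and to between 5515 and 5915 CPM at 24 h, so that it started below the DMSO libraries of 18 h and overlapped those of 24 h at the end. *Ccnb1* was called lower in DMSO (-0.24 ± 0.04) and higher in C59 (0.87), a difference of -1.12 (adjusted p = 2.79e-05). *Msx1*, a BMP target in distal mesenchyme, was at 112 ± 7.06 and 106 ± 2.7 CPM in DMSO and went from a mean of 29.9 to 90.3 CPM in C59 (difference -1.66, adjusted p = 2.79e-05). *Shh* fell in DMSO and was at means of 0.614 and 0.841 CPM in C59, already low at 18 h (difference -3.26, adjusted p = 0.00743). *Fgf8* fell in DMSO and was at 8.63 and 10.1 CPM in C59 (difference -1.19, adjusted p = 0.0238). Replicate 2 of C59 at 24 h was, like replicate 1 of DMSO at 18 h, low in ribosomal RNA counts. Without these 2 libraries 281 genes differed, among them 24 of the G2/M and 11 of the S phase genes. *Msx1* and *Ccnb1* were still called, whereas *Shh* (adjusted p = 0.0786) and *Fgf8* were not.

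**Figure D5:**
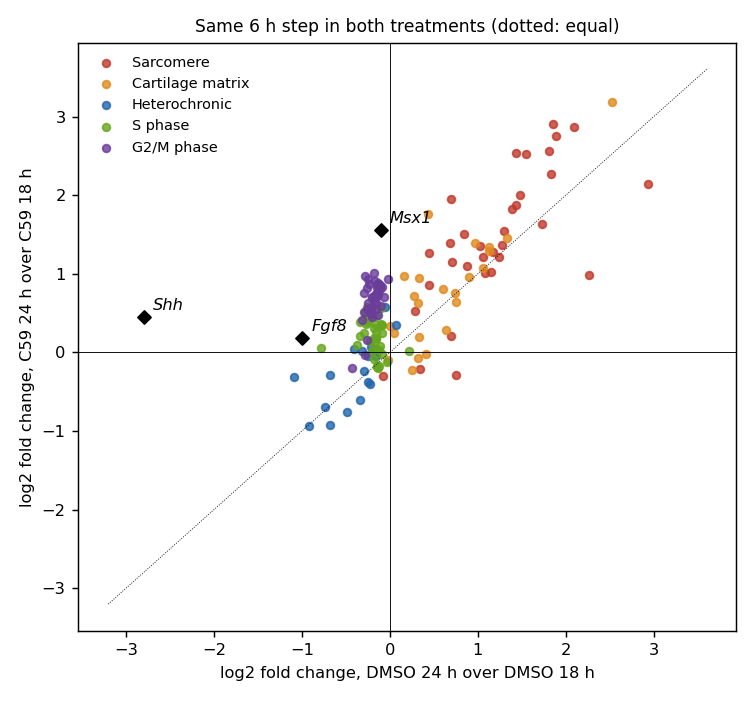
Log2 fold change from 18 to 24 h in DMSO libraries (x axis) and in C59 libraries (y axis) for genes of 5 lists, with the dotted line where both are equal and diamonds for *Shh*, *Fgf8* and *Msx1*. Most G2/M genes lay left of 0 and above 0 (medians -0.176 in DMSO and 0.723 in C59), whereas sarcomere genes (medians 1.17 and 1.37) lay to the upper right.

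The step was also set beside the preceding one, from 12 to 18 h, which shares the 18 h libraries. A gene that was off at 18 h alone therefore differs between the steps by construction. The steps differed for 37 of 13542 genes (0.273%), 19 higher and 18 lower from 18 to 24 h, and for 340 without replicate 1 of 18 h. *Pax1* was at 77.5 ± 4.46 CPM at 12 h, 74 ± 1.53 CPM at 18 h and 44.7 ± 2.97 CPM at 24 h, so its fall came in the later step (difference -0.68, adjusted p = 0.0262). *Krt9* was at 3.73 ± 0.233, 3.96 ± 0.255 and 1.3 ± 0.133 CPM (difference -1.69, adjusted p = 0.0352). *Vgll2*, a cofactor of muscle genes, was at 5.22 ± 0.847, 14.9 ± 0.905 and 20.9 ± 1.28 CPM, with most of its rise in the earlier step (difference -1.03, adjusted p = 0.0458). The chaperone gene *Hspa8* was at 1736 ± 55.7 CPM at 12 h, 1222 ± 33.2 CPM at 18 h and 1324 ± 34.8 CPM at 24 h, lowest in the middle (difference 0.60, adjusted p = 0.00731).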

How the data were processed

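The authors trimmed paired 150-base reads with cutadapt 1.16, aligned them to mm10 with STAR 2.7.0e and a custom annotation, and deposited the counts per gene that STAR wrote. They also deposited FPKM values from Cufflinks 2.2.1, which are normalised for length and depth. The strand setting of the counts is not given in the sources used here, so reads of overlapping and antisense genes cannot be told apart.

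The counts of autosomal protein-coding genes of the 6 libraries were filtered with filterByExpr (minimum count 10, minimum total 15), scaled by TMM and tested with edgeR 4.0.16 (quasi-likelihood F test, Benjamini-Hochberg adjustment over all 13563 genes, no covariates, two-sided). Standard errors were derived from the F statistic. CPM are counts over the TMM-scaled library size of all 30 libraries. Depth ranged from 18188636 to 38974885 counts per library in the series, and the biological coefficient of variation of the 6 libraries was 7.09%. Differences between steps were tested as contrasts of the same model fitted to the libraries of both steps. The FPKM values, as log2(FPKM + 1), were used for the principal components and for an alternative test with limma 3.58.1. DESeq2 1.42.0 was a further alternative. On simulated counts of the 18 against 24 h comparison, 100% of genes changed by 1 and 83% of those changed by 0.5 on the log2 scale were recovered. The changed genes were drawn only from those above a minimum mean CPM, and no simulated library stood apart from its group. These shares therefore do not cover low genes or a library such as replicate 1 of 18 h.

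The members and gene lists were chosen with earlier results of these data known. Of 802 listed symbols, 741 were tested, 37 were below the filter and 24 were not matched to the table. Genes named outside the lists are the 10 largest log2 fold changes in each direction among genes called beyond 1 whose groups do not overlap and whose mean over the 6 libraries is at least 1 CPM, and the 5 smallest adjusted p in each direction. From a list, the defining members and those with the largest, smallest or most significant changes were named. Between steps the 5 largest differences in each direction were named. A few genes that these rules name are not reported here. Per the study's methods, replicates were different embryos drawn from several litters per condition and time. The litter of each library is not given in the sources used here. The replicate numbers did not pair the libraries.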

Additional observations from a re-analysis of the deposited data

Results flagged for a closer look

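The step from 18 to 24 h differed between DMSO and C59 libraries for 32 named genes, by a test of the difference itself (edgeR, 12 libraries). Values are log2 differences, DMSO minus C59. Of the largest, the difference was 6.79 for *Gm10320*, 6.69 for *Zfp979*, 5.17 for *Zfp984*, 4.86 for *Padi4* and 4.53 for *Zfp985*. In the other direction it was -8.55 for *Tpm3-rs7*, -3.26 for *Shh*, -3.2 for *Csnk2a3*, -2.44 for *Myh15* and -2.41 for *Rfx4*. The *Zfp* genes, *Gm10320* and *Tpm3-rs7* have near-identical copies, so their counts are uncertain, and the cause of their differences was not tested.

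The other 22 are list members, and for 21 of them the step was lower in DMSO. Mitosis genes were *Ube2c* (-1.01), *Cks2* (-1.02), *Gtse1* (-1.05), *Cdc25c* (-1.08), *Ckap2l* (-1.08), *Ccnb1* (-1.12), *Bub1* (-1.18), *Nuf2* (-1.19) and *Cdca3* (-1.26). Patterning and signalling genes were *Tfap2c* (-1.01), *Fgf8* (-1.19), *Etv4* (-1.2), *Isl1* (-1.23), *Dkk1* (-1.6), *Runx3* (-1.64) and *Msx1* (-1.66). Muscle and matrix genes were *Lum* (-1.04), *Myf5* (-1.05), *Lbx1* (-1.07), *Tnnt3* (-1.26) and *Kera* (-2.31), and *Vcan* was the one with a higher step in DMSO (1.18). Without the 2 libraries low in ribosomal RNA counts, replicate 1 of DMSO at 18 h and replicate 2 of C59 at 24 h, 26 of the 32 were still called and 32 kept their sign. The 6 not called were *Shh*, *Fgf8*, *Isl1*, *Tnnt3*, *Vcan* and *Ckap2l*. The part of these libraries in the differences was not tested.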

How the results depend on the processing

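With 3 libraries per group, 1 library decided many counts, and the causes were not tested. The 1314 genes called from 18 to 24 h became 460 to 2472 on leaving out each library in turn: 2472 without 18 h replicate 1, 568 without 18 h replicate 3, and 577, 633 and 460 without 24 h replicates 1, 2 and 3. The 175 genes beyond 1 on the log2 scale became 110 to 208, with 110 without 18 h replicate 3 and 112 without 24 h replicate 3. A replicate block gave 810 genes, although the numbers carry no pairing (correlations of deviations between -0.045 and -0.033), and embryo sex as a term, added after seeing the data, gave 805. Limma on log2(FPKM + 1) called 30 genes beyond 1, and a test against a log2 fold change of 1 itself 3. Upper-quartile scaling called 1276 genes, 72.7% of them higher against 59.5%, and limma on log2(FPKM + 1) 85.8%. The 960 differences from C59 became 470 to 2057 (470 without C59 24 h replicate 2, 2057 without C59 18 h replicate 3, 638 and 610 without DMSO 18 h replicates 1 and 3, and 492, 581 and 544 without DMSO 24 h replicates 1, 2 and 3), 1500 with DESeq2, and 281 without the 2 libraries low in ribosomal RNA counts. The 175 beyond 1 became 115 (without C59 24 h replicate 2) to 219 and, without both libraries, 66. The 37 differences from the preceding step became 340 without 18 h replicate 1, 90 without 12 h replicate 2 and 7 to 20 without each of the others, and the 20 beyond 1 became 49, 51 and 3 to 11, with 218 and 58 in DESeq2 and 23 under the block (18 of them among the 37). The position of the 18 h libraries stayed within 1 SD in the 3 alternatives run. Of 260 named genes, 116 kept their call in every setting; 805 of 4416 gene values lost it, among them those of *Id2* (14 of 17 settings), *Pcna* (13 of 17) and *Hoxd1* (10 of 16), and 0 changed sign. Of 697 list medians recomputed, 570 moved by less than the spread between replicates. Depth limits low genes, such as *Cav3* and *Hoxd1* below 1 CPM at 18 h.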

Other observations

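In a fit over all 15578 tested genes of the table, 842 were higher and 410 lower. Among them, 13 of 1250 long noncoding and unclassified genes were higher (1.04%) and 40 lower (3.2%). *AA465934* was at 2.6, 2.36 and 2.76 CPM at 18 h and at 9.26, 15.1 and 7.29 CPM at 24 h (2.05 ± 0.26, adjusted p = 0.00184 with edgeR). *Gm9967* was at 6.44, 4.58 and 6.54 CPM and then at 0.463, 0.586 and 0.991 CPM (-3.06 ± 0.28). *Emx2os*, the antisense partner of *Emx2*, was higher by 1.23 ± 0.19, and *Evx1os* lower by 0.61 ± 0.11, and with the strand of counting not stated their reads cannot be told apart from those of overlapping genes. Genes inside introns of other genes were lower in 5 of 31 cases (16.1%) and higher in 0. Together with the unclassified genes they took 0.071 to 0.0777% of counts at 18 h and 0.054 to 0.0605% at 24 h, and the part of unspliced RNA was not tested.

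*H2-D1*, a class I histocompatibility gene, was at 18.3 ± 2.12 CPM at 12 h, 6.31 ± 0.93 CPM at 18 h and 15.2 ± 0.227 CPM at 24 h, lowest at 18 h, with a difference between the steps of 2.84 (adjusted p = 0.000185). *Lgals7*, an epithelial galectin, was also lowest at 18 h, at 2.93 ± 1.33, 1.30 ± 0.114 and 5.09 ± 0.397 CPM (difference 3.06). *Lrrc4b* was highest at 18 h, at 6.87 ± 2.85, 21.6 ± 4.08 and 11.8 ± 2.49 CPM (difference -2.53). *Dynlt1b* (2.19), *Lipo3* (1.99), *B3galt5* (-2.52), *Srsf3-ps* (-1.93) and *Gpat2* (-2.81) also differed between the steps, which share the 18 h libraries. *H2-D1* and *Dynlt1b* belong to families with near-identical copies, and their counts are uncertain. *Nr1h5* had 0 counts in the 3 libraries of 24 h, and of the 18 h libraries replicate 2 had 10.2 CPM and the other two 0, so it was not tested.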
